A study of Mus musculus with 3 samples.

Results

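The genes described are a set of 6 known from the response of neurons to axon injury and from axon regrowth: Sprr1a, Atf3, Jun, Gap43, Hrk and Ecel1. They were chosen by symbol, with earlier results of these data known, and are 6 of the 31744 gene symbols counted in each of 3 single-cell libraries. Their identifiers in the count matrices were ENSMUSG00000050359 for Sprr1a, ENSMUSG00000026628 for Atf3, ENSMUSG00000052684 for Jun, ENSMUSG00000047261 for Gap43, ENSMUSG00000046607 for Hrk and ENSMUSG00000026247 for Ecel1. When a peripheral axon is cut, a signal that runs through the DLK and JNK kinases reaches the cell body and switches on transcription factors of the AP-1 and ATF families, among them Jun and Atf3. Effector genes follow, such as Gap43 and Sprr1a, whose products are found in growing axons, the endopeptidase Ecel1, and the pro-death gene Hrk, which is also induced when neurons are deprived of trophic factors. In rodents several of these genes are low in intact adult neurons and come on after axotomy, and Gap43 is also high while axons first grow.

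The study converted mouse embryonic fibroblasts directly into induced motor neurons, and its libraries were made with the 10x 3′ chemistry, in which each captured transcript is counted as 1 unique molecular identifier (UMI). The genotype throughout was Hb9::GFP, in which a motor neuron promoter drives a green fluorescent protein, and all cells received LNI, a cassette of Lhx3, Neurog2 and Isl1, together with DDRR, which supplies the HRAS(G12V) oncogene and the p53DD inhibitor of p53. The first library held Hb9::GFP-positive cells sorted at 14 dpi after conversion with supplements (BDNF, CNTF, GDNF, FGF and the small molecule RepSox). The second held Hb9::GFP-positive cells sorted at 14 dpi with none of these supplements. The labels mark the library without supplements, and that the first one had them was taken from the study design. The third held cells at 4 dpi, with supplements, that were sorted for low CellTrace-FarRed, a dye diluted by cell division, and not for the reporter. Cells at 14 dpi were freed with papain and DNase, whereas those at 4 dpi were freed with trypsin, so that time, sort and enzyme cannot be told apart in any comparison of 14 dpi with 4 dpi. The labels name no axon injury, and all cells were dissociated before sorting. The supplements were given together, so their single effects cannot be told apart. Active HRAS signalling was shared by all 3 libraries, so no library shows these genes without it.

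Each condition had 1 library, so there was no spread between replicates and no test of a difference, and intervals below are exact 95% intervals that cover counting error only. After a filter of at least 500 genes and at most 20% mitochondrial UMIs, 2314 cells of the first library, 3716 of the second and 4492 of the third were kept, with median depths of 14380.5, 10664 and 2312.5 UMIs. Pairs of libraries shared 3 to 5 cell barcodes. A cell with at least 1 UMI of Stmn2, a microtubule regulator of growing axons that marks neurons, was called Stmn2-positive. This took in 57.9% of kept cells with supplements (1339 cells, median 15241 UMIs), against 26.5% in the library without them (985 cells, median 12245 UMIs) and 1.07% at 4 dpi (48 cells, median 2570.5 UMIs). Neuronal markers, among them Stmn2 and Gap43, summed to 14044 counts per 1000000 UMIs (CPM) in Stmn2-positive cells with supplements, against 14801 CPM in those without them and 5866 CPM in the 48 cells at 4 dpi. Fibroblast markers summed to 1775, 1947 and 5145 CPM in the same order. The Stmn2-positive cells at 4 dpi thus carried fewer neuronal and more fibroblast transcripts than those at 14 dpi. Cells with no Stmn2 UMI, called Stmn2-negative, also carried neuronal markers at 14 dpi, at 8124 CPM with supplements and 6808 CPM without. Stmn2-negative cells therefore cannot be read as cells outside the neuronal state.

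The 300 bases around the annotated start (250 before it and 50 after it) are shown for the 3 members whose window held a binding motif of the AP-1 or ATF families, the factors to which Jun and Atf3 belong. The sequences are RefSeq's for build GRCm38.p6, all on the minus strand, and capitals mark a motif match: Sprr1a lies at chr3:92485832-92486131, Atf3 at chr1:191183284-191183583 and Jun at chr4:95052173-95052472.
Sprr1a: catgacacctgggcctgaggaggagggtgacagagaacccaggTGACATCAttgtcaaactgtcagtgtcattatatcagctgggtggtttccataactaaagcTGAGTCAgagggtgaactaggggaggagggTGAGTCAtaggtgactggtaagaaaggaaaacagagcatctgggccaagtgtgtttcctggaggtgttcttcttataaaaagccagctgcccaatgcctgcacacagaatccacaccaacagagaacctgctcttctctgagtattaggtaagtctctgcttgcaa
Atf3: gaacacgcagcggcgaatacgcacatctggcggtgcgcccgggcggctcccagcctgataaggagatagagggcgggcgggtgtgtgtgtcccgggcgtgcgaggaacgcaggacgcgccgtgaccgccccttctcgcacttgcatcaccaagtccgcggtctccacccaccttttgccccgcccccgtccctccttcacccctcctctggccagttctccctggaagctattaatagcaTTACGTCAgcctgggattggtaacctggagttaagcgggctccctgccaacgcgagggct
Jun: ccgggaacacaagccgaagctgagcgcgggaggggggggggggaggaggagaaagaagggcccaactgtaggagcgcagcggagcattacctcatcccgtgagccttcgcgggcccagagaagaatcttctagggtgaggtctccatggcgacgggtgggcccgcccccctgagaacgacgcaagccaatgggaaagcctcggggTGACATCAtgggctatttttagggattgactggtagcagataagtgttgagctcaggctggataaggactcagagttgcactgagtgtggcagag
Windows were matched for 5 of the 6 members, all but Gap43, which was not searched. The motifs searched on both strands were TGACTCA (AP-1), TGACGTCA (the cAMP response element) and its single-base variants TGACATCA and TTACGTCA, and they were chosen after these sequences had been seen. The Sprr1a window held the AP-1 motif in 2 places, with TGAGTCA, its reverse complement, starting 146 and 116 bases before the start, and TGACATCA 207 bases before it. The Atf3 window held TTACGTCA 10 bases before the start, and the Jun window held TGACATCA 45 bases before the start. No matches overlapped, and the windows of Hrk and Ecel1 held none of these letters. Among 32851 windows of the same length, 5.20% held the AP-1 motif, 0.222% held it in 2 or more places, 3.62% held TGACATCA, 0.499% held TTACGTCA and 10.8% held any of the motifs. These matches describe letters in a window and were not tied to binding by any measurement here.

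The 6 genes did not move together between the 14 dpi libraries. Sprr1a, Atf3 and Gap43 were higher with supplements, Ecel1 was lower, and Jun and Hrk differed by less than 2-fold over all kept cells. A gene was called higher or lower when it reached 10 CPM in either library and its ratio was at least 2-fold. By that rule 3 of the 6 members were higher and 1 was lower, whereas of all 9374 genes that reached the minimum 4.79% were higher and 5.18% were lower. The median log2 ratio of the members was 0.54, against 0.03 over all genes tested. Over all kept cells, a larger share of cells that express a gene and more RNA per expressing cell cannot be told apart, so values within Stmn2-positive cells are given beside them.

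**Figure D1:**
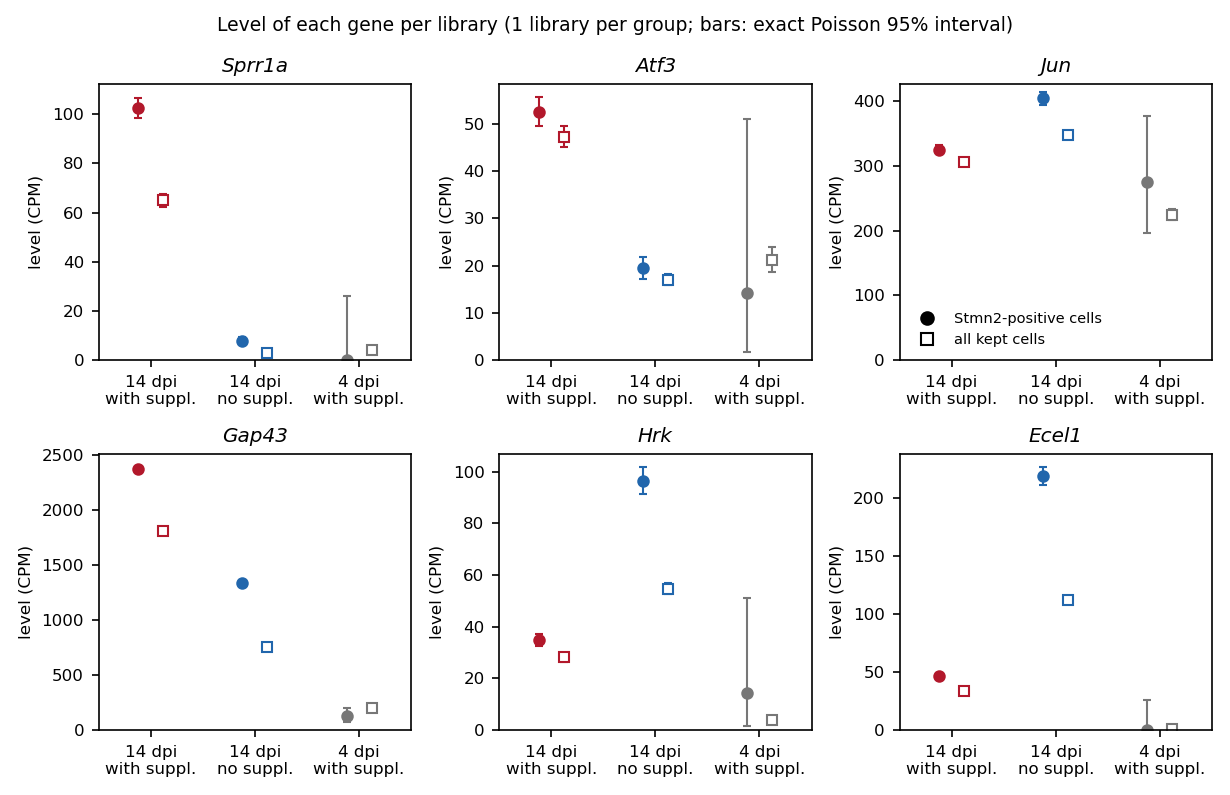
Level of each gene in CPM (vertical axes, each starting at 0) in each library (14 dpi with supplements, 14 dpi with none, 4 dpi), over Stmn2-positive cells (filled circles) and all kept cells (open squares), with exact Poisson 95% intervals and 1 library per group. Sprr1a stands at 102 CPM in Stmn2-positive cells with supplements and at 7.80 CPM in those without, while Ecel1 stands at 46.4 CPM in those with supplements and 218 CPM in those without.

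Jun and Atf3 are the transcription factors of the set. Atf3, a stress-induced factor of the ATF family and a standard marker of axotomised neurons, was at 47.3 CPM (45.1 to 49.5) with supplements, against 17.0 CPM (15.8 to 18.2) without supplements and 21.2 CPM (18.7 to 24.0) at 4 dpi. Within Stmn2-positive cells at 14 dpi it was at 52.5 CPM with supplements and 19.4 CPM without, a log2 ratio of 1.44 (1.25 to 1.63). Stmn2-negative cells showed a like difference, with 38.7 CPM with supplements and 15.9 CPM without (log2 ratio 1.28). Atf3 was thus found in both cell sets, and the level in Stmn2-positive cells was 1.36-fold that in Stmn2-negative cells with supplements and 1.22-fold without. Jun, an AP-1 subunit phosphorylated by JNK and needed for efficient regrowth of facial motor axons in mice, was the most even member. It was at 306 CPM with supplements, against 347 CPM without supplements and 224 CPM at 4 dpi. In Stmn2-positive cells it was at 325 CPM with supplements and 404 CPM without, a log2 ratio of -0.31 (-0.36 to -0.26). Its level is that of the transcript and says nothing of phosphorylation.

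Dissociation itself induces immediate early genes, and their 16-gene list summed to 999 CPM with supplements, against 1162 CPM without them and 819 CPM at 4 dpi. Fos, the main partner of Jun, was at 31.1 CPM with supplements and 74.4 CPM without, a log2 ratio of -1.26. Egr1 was at 70.5 CPM with supplements and 157 CPM without (log2 ratio -1.15), Fosb was at 3.34 and 3.62 CPM and Junb at 79.6 and 83.0 CPM in the same order. Dusp1, a phosphatase of the same list, was at 110 CPM with supplements and 71.1 CPM without, a log2 ratio of 0.62. Of the 10 genes of the list that reached 10 CPM, 3 were called lower with supplements (Fos, Egr1 and Zfp36) and none higher. Of all genes tested, 5.18% were lower and 4.79% higher. Within Stmn2-positive cells 1 of 10 was lower and none higher, against 6.3% and 4.11% of all genes there. The part of dissociation in the Atf3 and Jun values was not tested.

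Gap43 and Sprr1a are the members tied to the growing axon. Gap43, a membrane protein of growth cones, had the most UMIs of the set in both 14 dpi libraries, at 1807 CPM (1793 to 1821) with supplements, against 752 CPM (744 to 760) without supplements and 201 CPM (193 to 209) at 4 dpi. Its 2.40-fold difference between the 14 dpi libraries was 1.77-fold within Stmn2-positive cells, at 2368 CPM with supplements and 1339 CPM without. Within Stmn2-negative cells it was 1.83-fold, at 896 CPM with supplements and 488 CPM without. Both values within a cell set were smaller than the value over all cells, and neither reached 2-fold. The share of cells that were Stmn2-positive differed between the libraries as given above.

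Sprr1a, a small proline-rich protein of the epidermal cornified envelope that injured sensory neurons of mice switch on and that promotes neurite outgrowth, showed the largest ratio. It was at 64.9 CPM (62.4 to 67.6) with supplements, against 2.81 CPM (2.35 to 3.34) without supplements and 4.10 CPM (3.04 to 5.40) at 4 dpi. The log2 ratio with over without supplements was 4.53 (4.27 to 4.80) over all kept cells. Within Stmn2-positive cells it was 3.71 (3.44 to 4.00), from 2332 UMIs with supplements and 111 without. No UMI of Sprr1a was found in the 48 Stmn2-positive cells at 4 dpi, where the upper limit was 26.1 CPM. The 12 keratinocyte markers summed to 81.3 CPM with supplements, 127 CPM without them and 47.3 CPM at 4 dpi, and of the defining keratins Krt5, Krt14 and Krt15 had no UMI in either 14 dpi library. Krt10 made up 73.3 CPM of the sum with supplements and 45.4 CPM of the sum without. Krtdap made up 77.7 CPM of the sum without supplements. The Krtdap log2 ratio with over without supplements was -4.96, the opposite direction to that of Sprr1a. The part of keratinocytes in the Sprr1a values was not tested. Sprr1b, the closest relative by name, was at 0.217 CPM with supplements and had no UMI without supplements or at 4 dpi. Of the 15 genes of the cornified envelope list, Sprr1a alone reached 10 CPM in a 14 dpi library.

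Hrk and Ecel1 differed the other way. Hrk, a BH3-only protein that binds Bcl2 and Bcl-xL and promotes neuronal death, was at 28.1 CPM (26.4 to 29.9) with supplements, against 54.6 CPM (52.5 to 56.8) without supplements and 3.69 CPM (2.69 to 4.93) at 4 dpi. Over all kept cells its log2 ratio of -0.96 (-1.06 to -0.85) fell short of 2-fold. Within Stmn2-positive cells it was 2.78-fold lower with supplements, at 34.7 CPM with supplements and 96.5 CPM without. Ecel1, an endopeptidase of the neprilysin family also called DINE, needed for motor axons to branch at muscle in mice, was at 33.2 CPM (31.4 to 35.1) with supplements, against 112 CPM (109 to 115) without supplements and 0.983 CPM (0.508 to 1.72) at 4 dpi. Within Stmn2-positive cells it was 4.70-fold lower with supplements, at 46.4 CPM with supplements and 218 CPM without. Stmn2-negative cells carried the same direction for both: Hrk was at 17.4 CPM with supplements and 35.8 CPM without, and Ecel1 at 11.8 CPM with supplements and 64.2 CPM without.

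Within Stmn2-positive cells at 14 dpi, Sprr1a and Atf3 were higher with supplements and Hrk and Ecel1 were lower. These 2 higher and 2 lower members of 6 stand against 4.11% higher and 6.3% lower of 9486 genes tested, and the median log2 ratio was 0.25 for the members and -0.05 for all genes. Within Stmn2-negative cells 5 members reached the minimum, of which Atf3 was higher and Hrk and Ecel1 were lower, against 4.87% higher and 4.73% lower of 9180 genes. Sprr1a did not reach 10 CPM there, at 4.07 CPM with supplements and 0.569 CPM without.

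**Figure D2:**
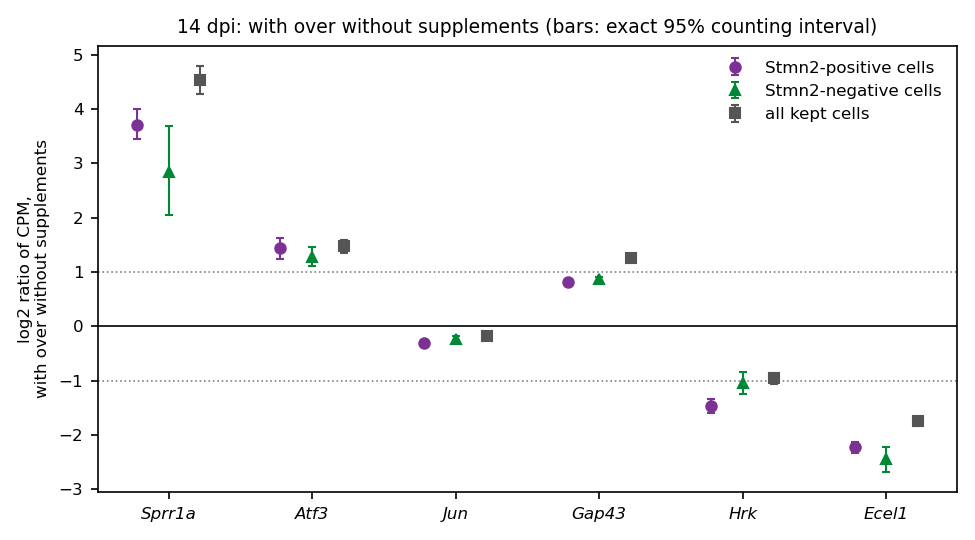
Log2 ratio of CPM at 14 dpi, with over without supplements (vertical axis), for each gene in Stmn2-positive cells, Stmn2-negative cells and all kept cells, with exact 95% counting intervals and dotted lines at 2-fold. Hrk and Ecel1 lie below 0 in all 3 cell sets, at -1.47 and -2.23 in Stmn2-positive cells, and Jun lies near 0.

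Between the times, 5 of the 6 members were higher at 14 dpi with supplements than at 4 dpi, against 15.4% higher and 10.1% lower of 9415 genes tested. The folds were 33.8 for Ecel1, 15.9 for Sprr1a, 9.01 for Gap43, 7.62 for Hrk and 2.23 for Atf3, and Jun was 1.36-fold. The Ecel1 fold rests on 12 UMIs at 4 dpi, and its 95% interval on the log2 scale ran from 4.27 to 6.03. The library without supplements differs from the one at 4 dpi in supplements as well as in time, sort and enzyme, which cannot be told apart. In it, 3 of the 5 members that reached the minimum were higher than at 4 dpi, against 15.7% higher and 9.64% lower of 9474 genes. The folds there were 114 for Ecel1, 14.8 for Hrk and 3.75 for Gap43. Atf3 and Sprr1a had log2 ratios of -0.32 (-0.52 to -0.11) and -0.54 (-1.02 to -0.04), the Sprr1a levels being below 10 CPM in both libraries. Both comparisons use the same 4 dpi library. Fibroblast markers summed at 14 dpi to 2982 CPM with supplements and 4482 CPM without them, and to 7907 CPM at 4 dpi, and the part of cell makeup in these folds was not tested.

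The share of cells with a UMI depends on depth, so every cell was also thinned to the same number of UMIs. At 1000 UMIs per cell, Gap43 was found in 61.0% of cells (59.0 to 63.0) with supplements, against 39.3% (37.7 to 40.8) in the library without them and 15.6% at 4 dpi. Jun was found in 25.4%, 25.3% and 17.4% of cells in the same order, and the 14 dpi intervals overlapped. Atf3 was found in 4.60%, 1.76% and 1.69%, and Sprr1a in 2.89%, 0.135% and 0.320%. Gap43, Atf3 and Sprr1a were thus found in a larger share of cells with supplements than without, with intervals that did not overlap. Ecel1 was found in 3.11%, 8.96% and 0.160%, a smaller share with supplements than without. Hrk was found in 3.24%, 4.52% and 0.274%, and its 14 dpi intervals overlapped. In unthinned cells the shares were 88.5%, 75.5% and 29.6% for Gap43 and 11.1%, 0.807% and 0.579% for Sprr1a.

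Free RNA can give UMIs in cells that do not express a gene, so the shares were set beside those in cells rich in fibroblast transcripts, which had no UMI of Stmn2 or Tubb3 and at least 5 UMIs of 18 fibroblast genes after thinning, and numbered 149 with supplements, 805 without them and 2014 at 4 dpi, with median depths of 10690, 9113 and 1962.5 UMIs. At 14 dpi these cells had been sorted for the reporter and held its transcript at 814 CPM with supplements and 452 CPM without. Whether their UMIs of a member are free RNA or their own was not tested. At 1000 UMIs these cells held Gap43 in 14.8% with supplements, 12.4% without them and 20.6% at 4 dpi. The 15.6% of all 4 dpi cells with Gap43 was below that share, and its level at 4 dpi was 127 CPM (18 UMIs) in Stmn2-positive cells and 201 CPM in Stmn2-negative cells. Sprr1a was found in 0 of 149 such cells with supplements, where a floor of 3 cells would be a share of 2.01%. It was found in 0 of 805 without supplements, where that floor would be 0.373%. The share of 2.89% with supplements lay above that limit, and the 0.135% without supplements did not. Jun was found in 19.5%, 17.3% and 16.7% of these cells in the same order, and the last was close to its share in all cells at 4 dpi. Atf3 was found in 0.671%, 1.12% and 0.844% of them. Hrk and Ecel1 were each found in 1 of 149 of them with supplements (0.671%, 0.017 to 3.68) and in 4 of 805 without (0.497%, 0.136 to 1.27). Their shares in all cells without supplements were above that interval, and those in all cells with supplements were within it.

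Stmn2-positive cells were set against Stmn2-negative cells of the same library, to see which members follow Stmn2. The Stmn2-negative cells, which carried neuronal markers as given above, had median depths of 13158 UMIs with supplements and 10214 UMIs without. With supplements Sprr1a was 25.2-fold, Ecel1 3.94-fold and Gap43 2.64-fold higher in Stmn2-positive cells, 3 of 6 members against 5.72% higher and 4.82% lower of 9224 genes. Hrk was at 1.99-fold, just under the threshold. Without supplements Ecel1 was 3.40-fold, Gap43 2.74-fold and Hrk 2.69-fold higher, 3 of the 5 members that reached the minimum against 8.65% higher and 4.34% lower of 9442 genes. Sprr1a without supplements was at 7.80 CPM in Stmn2-positive cells and 0.569 CPM in Stmn2-negative cells, below the minimum. That ratio turned on how Stmn2 was called: with Stmn2 called at a thinned depth of 1000 UMIs its log2 value was -0.01, against 3.78 with all UMIs. With the same definition the Sprr1a value with supplements was 3.47, against 4.65, and that of Ecel1 was 1.17, against 1.98.

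Graded by Stmn2 UMIs at 5000 UMIs per cell (0, 1 to 2, 3 to 5, and 6 or more), the members differed in how far they followed Stmn2. Gap43 was found in 70.3%, 84.3%, 96.3% and 99.5% of cells with supplements and in 59.8%, 87.1%, 97.6% and 97.7% without. Ecel1 was found in 5.53%, 16.5%, 19.0% and 21.2% of cells with supplements, against 20.8%, 42.9%, 67.0% and 66.1% without. Hrk was found in 8.45%, 10.4%, 14.8% and 18.2% with supplements, against 12.5%, 25%, 37.4% and 41.2% without. In every Stmn2 class Ecel1 and Hrk were thus found in a smaller share of cells with supplements than without.

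Sprr1a was found in 1.46%, 4.82%, 7.87% and 15% of cells with supplements, against at most 0.997% in any class without. Its level with supplements was 210 CPM (194 to 227) in cells with 6 or more Stmn2 UMIs and 24.1 CPM in the class with 3 to 5, so most of its UMIs lay in the highest class. Atf3 did not follow Stmn2 in order: it was found in 10.3%, 10.8%, 20.4% and 15.7% of cells with supplements and in 5.21%, 8.21%, 7.77% and 8.97% without. Jun was found in 58.7%, 68.7%, 70.4% and 72.4% with supplements and in 64.4%, 73.9%, 72.8% and 78.1% without.

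**Figure D3:**
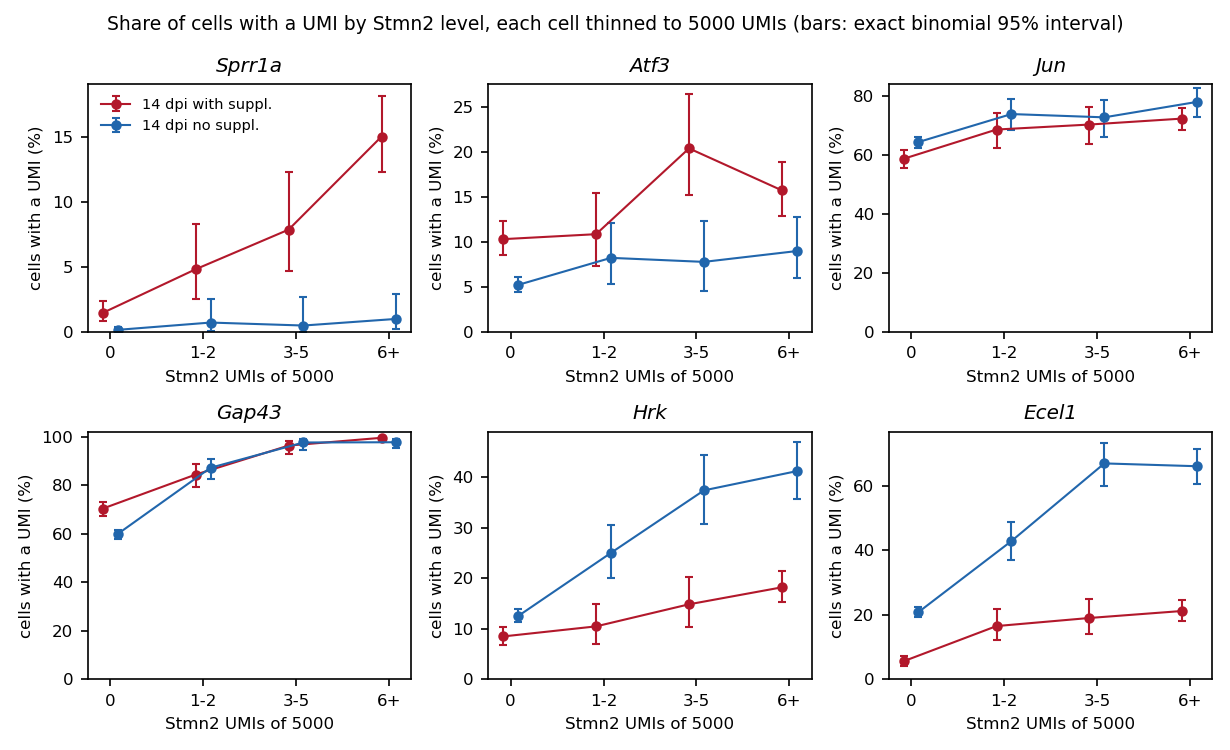
Percentage of cells with a UMI of each gene (vertical axes, starting at 0) by the number of Stmn2 UMIs in the cell (horizontal axes), every cell thinned to 5000 UMIs, at 14 dpi with and without supplements, with exact binomial 95% intervals. Ecel1 reaches 21.2% with supplements and 66.1% without in the highest Stmn2 class, and Sprr1a reaches 15% and 0.997%.

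The members differed in how evenly their UMIs were spread over cells. As much as 50% of the Sprr1a UMIs of Stmn2-positive cells with supplements lay in 14 of 1339 cells (1.05%), with 172 UMIs in the highest cell, 52 cells at 10 UMIs or more and 229 cells with any. Without supplements 1 cell held 36 of the 111 UMIs (32.4%), 2 cells held 50% or more of them and 19 of 985 cells had any. The size of the Sprr1a difference in CPM therefore rests on few cells in each library. Its share of cells at equal depth also differed, as given above. Within Stmn2-positive cells the log2 ratio was 4.31 with every cell weighted equally and 5.82 with Stmn2 called at the thinned depth, against 3.71, so its size was not well fixed.

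The other members were spread more widely. The top 50% of UMIs lay in 64 cells for Atf3, 88 for Ecel1, 113 for Hrk, 241 for Jun and 257 for Gap43 among the 1339 Stmn2-positive cells with supplements. Among the 985 without supplements the numbers were 34 for Atf3, 120 for Hrk, 157 for Ecel1, 181 for Jun and 205 for Gap43. Ecel1 was thus held by a smaller part of the Stmn2-positive cells with supplements, where 10 cells had 10 UMIs or more, against 68 cells without. Its highest single cells were close, at 23 UMIs with supplements and 25 UMIs without.

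**Figure D4:**
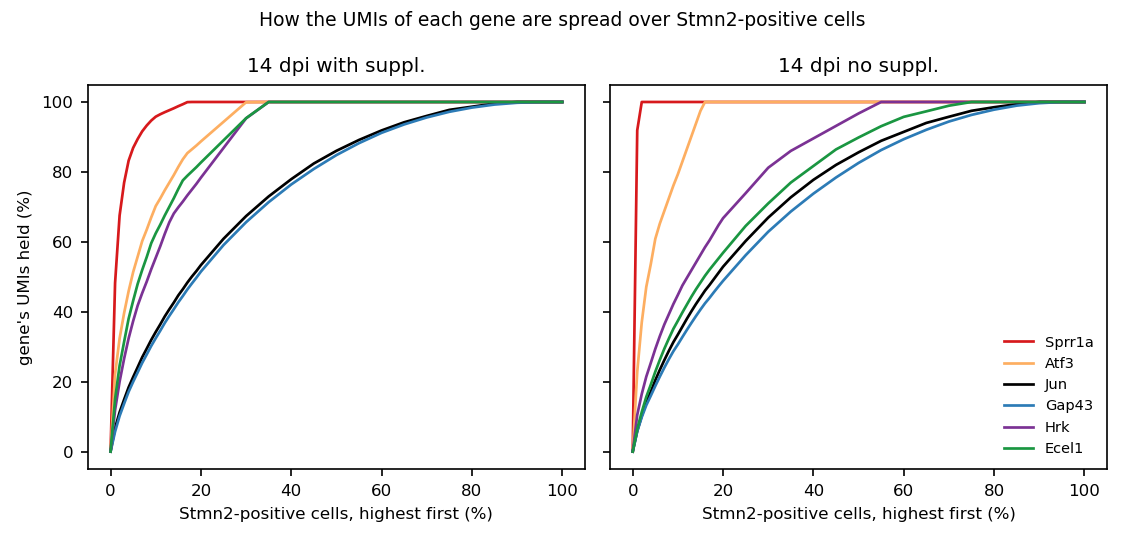
Cumulative percentage of each gene's UMIs (vertical axis) held by Stmn2-positive cells ranked from the highest down (horizontal axis, percentage of cells), at 14 dpi with supplements (left) and without (right). The Sprr1a curve is the steepest in both, with 50% of its UMIs in 14 of 1339 cells and in 2 of 985 cells.

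Which members were found in the same cells was read at 5000 UMIs per cell in cells Stmn2-positive at that depth, 1070 with supplements and 787 without. The number of cells with both genes of a pair was set beside the number that the separate shares give by multiplication, as a description. With supplements 14 of the 15 pairs were above that product, and without supplements 11 of 15 were. Several lay close to 1, such as Jun with Gap43 at 1.01 with supplements. Gap43 was in 1020 of the 1070 cells with supplements, which leaves its pairs little room above 1. The share of all gene pairs above the product was not counted, so these counts cannot be read as a trait of the members. The pair farthest above it was Sprr1a with Atf3 with supplements, found together in 42 cells against 18.6 by product, a ratio of 2.26. The ratio was 1.94 at 2000 UMIs and 1.04 at 1000 UMIs, where 3 cells had both against 2.90 by product. Atf3 was found in 35% of cells with Sprr1a and in 13.1% of cells without Sprr1a. Without supplements 6 cells had Sprr1a and 1 of them had Atf3, too few to describe the pair. Of 120 cells with Sprr1a with supplements, 119 also had Gap43.

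Atf3 and Jun, which can pair as a dimer, were found together in 138 cells with supplements against 118 by product (1.17), and in 55 cells without against 49.6 (1.11). Jun was in 83.1% of cells with Atf3 and 68.9% of cells without Atf3 in the library with supplements, and in 83.3% and 74.5% in the library without. Atf3 and Hrk were found together in 38 cells with supplements against 26.1 by product (1.46), and in 24 cells without against 22.7 (1.06). At 1000 UMIs with supplements no cell had both Atf3 and Hrk, against 2.12 by product, too few to describe the pair at that depth. At 5000 UMIs the Atf3 pairings were thus above the product in both libraries for Jun, for Hrk and for Gap43 (1.04 with supplements and 1.03 without). The pairing with Gap43, and that with Hrk without supplements, lay close to the product. For Ecel1 they were on opposite sides, at 1.07 with supplements and 0.887 without.

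Hrk and Ecel1, the members lower with supplements, were found together in 36 cells with supplements (3.36%), near the 33.0 by product. Without supplements they were found together in 190 cells (24.1%), against 157 by product (1.21). Ecel1 was in 70.1% of cells with Hrk and 51.7% of cells without Hrk in the library without supplements. In Stmn2-negative cells without supplements the same pair was in 170 cells against 68.2 by product (2.49), and with supplements its ratio was 1.66. Every pair of members was above the product in Stmn2-negative cells of both libraries, such as Gap43 with Hrk at 1.47 without supplements. Being above the product there was therefore not particular to Hrk with Ecel1. The median Stmn2-positive cell held 2 members with supplements and 3 without, and 38.4% of cells with supplements and 59.7% of cells without held 3 or more. No product of single shares was set beside these values, so they do not describe co-detection. Ecel1 was in 210 of 1070 cells with supplements and 457 of 787 without, and Hrk in 168 and 271. Sprr1a was in 120 and 6 and Atf3 in 166 and 66. All 6 were found in 3 cells with supplements and in none of 787 without. Only 6 of those 787 cells had Sprr1a, too few for this difference to describe co-detection. At 4 dpi, where cells were too shallow for this depth, 18 of 25 Stmn2-positive cells at 1000 UMIs held no member.

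**Figure D5:**
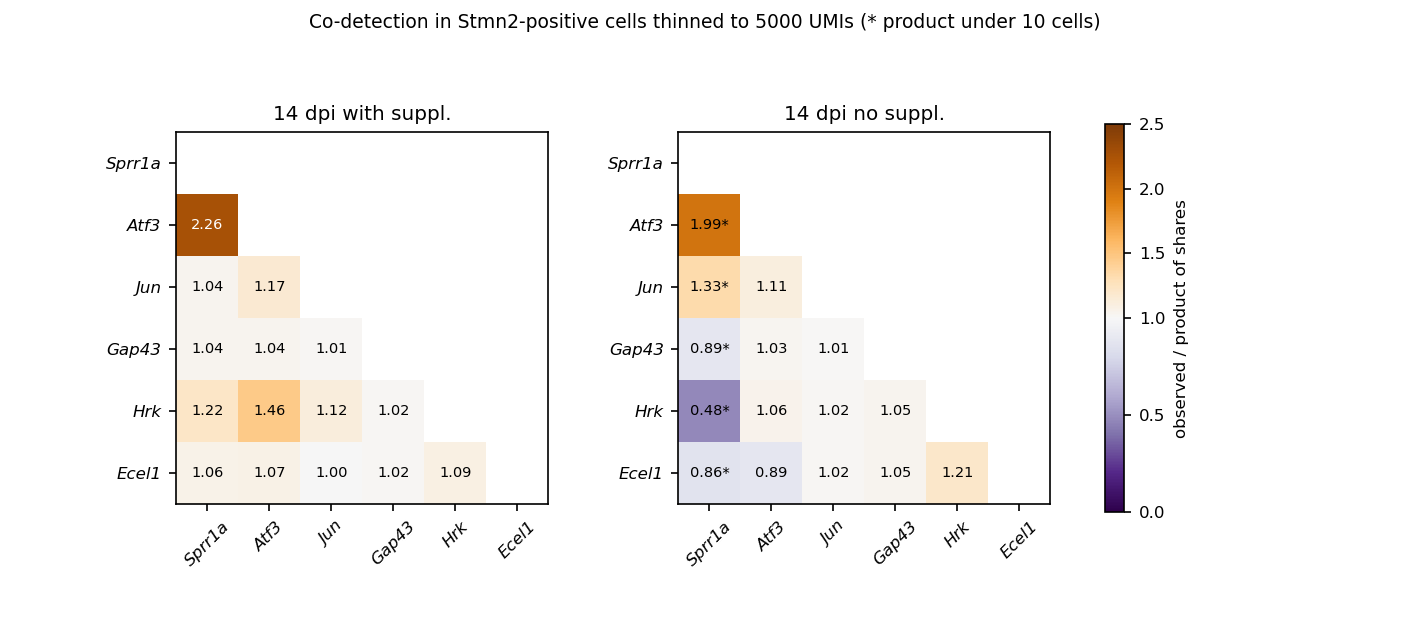
Number of Stmn2-positive cells with both genes of a pair, divided by the number that their separate shares give by multiplication (colour and printed value, 1 in white), at 14 dpi with supplements (left) and without (right), every cell thinned to 5000 UMIs. Sprr1a with Atf3 stands at 2.26 with supplements, and Hrk with Ecel1 at 1.09 with supplements and 1.21 without; an asterisk marks products under 10 cells.

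The genes whose levels were most like a member's were sought over Stmn2-positive cells by Pearson's r of log-normalised counts, among 10762 genes, and were named where r was at least 0.3 in both 14 dpi libraries. Cells of a library share its depth and makeup, so r is a description. For Atf3 these were Ddit3, the stress factor CHOP (r = 0.42 over 1339 cells with supplements and 0.34 over 985 without), and Tnfrsf12a, the receptor of TWEAK (0.34 and 0.33). Atf3 was in 23.1% of Ddit3-positive cells and 10.7% of Ddit3-negative cells with supplements, and in 13.4% and 5.32% without. Ddit3 itself was at 144 CPM with supplements and 125 CPM without over all kept cells, a log2 ratio of 0.20 that did not reach 2-fold as that of Atf3 did. For Gap43 they were the neuronal kinesin Kif5c (0.57 and 0.56), Bex2 (0.52 and 0.52) and the ubiquitin hydrolase Uchl1 (0.52 and 0.60). No gene reached 0.3 in both libraries for Sprr1a, Jun, Hrk or Ecel1. Sprr1a had a UMI in 19 of the 985 cells without supplements, too few for its r there to say which genes it resembles.

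The other genes of the injury programme were counted in lists, most of which contain members themselves. The lists of secreted factors and of the JNK and DLK pathway contain none. Each count over all kept cells stands against 4.79% higher and 5.18% lower of all genes tested. Of 12 injury transcription factors, all reached 10 CPM, 1 was higher with supplements (Atf3) and 2 were lower, Cebpd at 25.4 CPM with supplements and 72.4 CPM without and Cebpb at 67.3 and 163 CPM. Sox11, a factor needed for regrowth of sensory axons in mice, was at 1011 CPM with supplements and 513 CPM without, a log2 ratio of 0.98. The median log2 ratio of the list was 0.21. Of 21 growth cone and cytoskeleton genes 20 reached the minimum, and 5 were higher and none lower, among them Stmn2 at 842 CPM with supplements and 258 CPM without and Tubb3 at 1039 and 487 CPM. Within Stmn2-positive cells 2 of 20 were higher, against 4.11% of all genes there: Sprr1a and Cd44, a hyaluronan receptor at 122 CPM with supplements and 45.1 CPM without.

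Secreted injury factors, the neuropeptides and cytokines that injured neurons release, were the list with the largest ratios. Of 17 genes 9 reached the minimum, of which 4 were higher with supplements and 1 was lower (4.79% and 5.18% of all genes), with a median log2 ratio of 0.47. Vip was at 71.2 CPM with supplements and 0.589 CPM without (log2 ratio 6.92), Nts at 345 and 25.6 CPM (3.75) and Gal at 7261 and 1020 CPM (2.83). Nppb, the remaining higher gene, was at 12.8 CPM with supplements and 1.83 CPM without, and Cck, the lower one, was at 122 and 607 CPM. Gal was at 3768 CPM at 4 dpi. Of 20 injury receptors and enzymes 13 reached the minimum, 1 was higher, Gadd45a at 157 CPM with supplements and 78.1 CPM without, and 2 were lower, Ecel1 and Osmr, the oncostatin M receptor at 5.60 and 19.1 CPM.

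The genes of the JNK and DLK pathway upstream of Jun, which include phosphatases and scaffolds as well as kinases, showed no call in either direction over all kept cells, with 14 of 15 genes tested and a median log2 ratio of 0.14. The scaffold Mapk8ip1 was at 58.4 CPM with supplements and 122 CPM without in Stmn2-positive cells, the 1 lower gene of 14 there. Of all genes tested in those cells 6.3% were lower, so this count is near that share. Against 4 dpi, 8 of the 14 were higher at 14 dpi with supplements and none lower (15.4% and 10.1% of all genes), led by the neuronal scaffold Mapk8ip2 at 37.3 CPM against 0.983 CPM and the neuronal kinase Mapk10 at 12.9 CPM against 0.410 CPM. Of 17 AP-1 family genes 13 reached the minimum, 1 was higher with supplements (Atf3) and 2 were lower (4.79% and 5.18% of all genes), Fos and Fosl1, the second of these at 2.72 CPM with supplements and 10.2 CPM without.

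Among 20 genes of the BH3-only and apoptosis list, 15 reached the minimum over all kept cells, and 2 were higher with supplements and none lower (4.79% and 5.18% of all genes). Both were the survival factors that Hrk binds: Bcl2 was at 54.0 CPM with supplements and 20.3 CPM without (log2 ratio 1.41), and Bcl2l1, which encodes Bcl-xL, was at 87.8 and 41.7 CPM (1.07). Bbc3, another BH3-only gene of the injury response, was at 33.4 CPM with supplements and 30.9 CPM without. Within Stmn2-positive cells 1 gene of 16 tested was higher, Bcl2 (1.11), and 1 was lower, Hrk. Of all genes tested there 4.11% were higher and 6.3% lower, so these counts are near that share. The median log2 ratio of the list was 0.17. Of 7 neprilysin family genes 2 reached the minimum, Ecel1 and Ece1, the endothelin-converting enzyme, at 24.2 CPM with supplements and 38.4 CPM without.

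Other cell types that express some members were looked for in the same libraries. The 10 Schwann cell and glial markers summed to 12.2 CPM with supplements, 8.83 CPM without them and 6.88 CPM at 4 dpi, with no marker at 10 CPM. The 10 macrophage markers summed to 6.09, 10.9 and 21.7 CPM and the 8 endothelial markers to 49.9, 39.1 and 39.7 CPM. Fibroblast markers were lower with supplements, as given above, and cycling markers summed to 459, 543 and 1352 CPM. The part of these differences in cell makeup in the members' values over all kept cells was not tested.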

How the data were processed

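Single-cell RNA was measured in 3 mouse libraries. The authors deposited 1 matrix of UMI counts per library, unnormalised; per the file headers it was written by Cell Ranger 6.1.1, and per the submitters' processing notes the build was GRCm39. Cells with at least 500 genes and at most 20% mitochondrial UMIs were kept. Counts were summed over each cell set and divided by its total (CPM); ratios with a count of 0 used 3 counts in its place. Calls needed 10 CPM in either set, at least 10 UMIs over both, and 2-fold. Shares and co-detection used cells thinned without replacement. Scrublet called 3 doublets with supplements, 2 without them and 2 at 4 dpi, too few to rely on, so its highest 5% of scores were left out as an alternative instead. Kept cells held 36782509, 45855979 and 12202809 UMIs in the same order. The members and lists were chosen with earlier results of these data known. Named genes were all members, Fos, Fosb, Egr1, Junb, Ddit3 and Bbc3, and the up to 3 genes most like a member. Others came from the up to 3 genes of each list with the largest log2 ratio, in either direction, with over without supplements. Not all of these are given in the text. Cd44, Nppb, Cck, Mapk8ip2, Mapk10 and Sprr1b were named after their values were seen. Alternatives changed the filter, minimum, scaling, thinning, Stmn2 definition and doublets. The calculations were tested on simulated data. Python 3.11.15, numpy 2.4.6, scipy 1.17.1, pandas 2.3.3 and scanpy 1.11.5 were used.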

Additional observations from a re-analysis of the deposited data

Results flagged for a closer look

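Atf3 and Sprr1a stood on opposite sides of the 4 dpi library in the 2 libraries at 14 dpi. The Sprr1a log2 ratio of 14 dpi over 4 dpi was 3.99 with supplements and -0.54 without supplements. The Atf3 log2 ratio was 1.15 with supplements and -0.32 without supplements. The difference between the ratios was not tested, since each group is 1 library and both ratios share the 4 dpi library. The Sprr1a levels without supplements and at 4 dpi were both under 10 CPM.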

How the results depend on the processing

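No paired analysis was possible because each group is 1 library. Of 186 member ratios under the other settings tried, 185 kept their sign, and of 127 alternative values for ratios of at least 2-fold, 126 stayed at least 2-fold. The exception was Sprr1a in Stmn2-positive over Stmn2-negative cells without supplements, at -0.013 with Stmn2 called after thinning to 1000 UMIs. Leaving out the 1% of cells highest in a gene, added after the data were seen, is not counted: it empties by construction any set in which under 1% of cells have the gene. Without mitochondrial and ribosomal protein genes 2 members, not 1, were lower with supplements over all kept cells, since Hrk then passed 2-fold at -1.04. With a minimum of 50 CPM, 2 members, not 5, were higher at 14 dpi with supplements than at 4 dpi, because fewer members reached it. Hrk in Stmn2-positive over Stmn2-negative cells with supplements passed 2-fold, at 1.06 to 1.11, under 4 alternatives. With Stmn2 called at 2 UMIs, Gap43 with Ecel1 was found at 1.00 times the product with supplements, on the other side of 1 from 1.02. At 2000 UMIs Sprr1a with Atf3 was found in no cell without supplements, a ratio of 0 against 1.99 from 1 cell. Depth limits the 4 dpi library most, where Stmn2-positive cells held 0 to 39 UMIs of each member.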
